A study of Homo sapiens with 10 samples.

Results

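The genes described here are 10 human genes known to respond to cyclic AMP (cAMP) and to the transcription factor CREB: CGA, LINC00473, PDE4B, PDE4D, NR4A1, NR4A2, NR4A3, CREM, SIK1 and PDE10A. They were taken by gene symbol from the 23426 genes listed for each sample, and all 10 were found. The set was chosen on differences between PKC412-treated and DMSO-treated cells in these same samples, so the values after PKC412 and their difference between the cell lines are given as a description. Counts of these genes past a limma threshold are printed beside the share of all genes, and nothing is read from them.

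RNA was sequenced from 2 established human breast cancer cell lines, MDA-MB-468 (basal subtype per the labels) and ZR75-1 (luminal subtype). Cells of each line were kept for 6 h in 10 cm dishes with the solvent DMSO (2 samples per line) or with PKC412 (3 samples per line). PKC412, also called midostaurin, is a staurosporine derivative that inhibits many protein kinases. The labels and the methods give its dose as 1 μM, whereas several figure legends of the study give a lower one for this experiment. The methods speak of triplicates, and 2 DMSO samples per line were analysed here. No label says that replicates were separate cultures, so p-values measure only the spread between these samples, which may be technical. In these bulk samples, fewer cells with a transcript and less of the transcript per cell cannot be told apart. Levels are FPKM, fragments scaled by transcript length and by mapped fragments. Sequencing depth is unknown, so no detection limit is given.

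The labels of the lines were checked against marker genes. The summed FPKM of 5 basal markers (KRT5, KRT14, KRT17, EGFR and FOXC1) was 2321 to 2611 in the MDA-MB-468 samples and 0.653 to 2.13 in the ZR75-1 samples. The sum of 5 luminal markers (ESR1, GATA3, FOXA1, XBP1 and TFF1) was 68.1 to 174 in MDA-MB-468 and 5040 to 8724 in ZR75-1. Of 5 markers of non-epithelial cells, PTPRC and CD3E were listed at 0 in the DMSO samples of both lines, and the sum of all 5 was 1.33 to 1.46 in DMSO and 2.14 to 2.50 in PKC412 in MDA-MB-468. In ZR75-1 that sum was 2.26 to 2.77 in DMSO and 6.68 to 11.1 in PKC412, nearly all of it from the collagen gene COL1A1. The part of these markers in the values below was not tested.

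cAMP is made by adenylyl cyclases, which Gs-coupled receptors switch on, and it is broken down by phosphodiesterases. It releases the catalytic subunits of protein kinase A (PKA), which phosphorylate CREB, and CREB with its coactivators then drives genes that carry a cAMP response element (CRE) near their start. Several targets close feedback loops: PDE4 enzymes degrade cAMP, SIK kinases hold back the CRTC coactivators of CREB, and CREM gives rise to short repressors. The NR4A genes are classical immediate-early targets.

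The letters of the CRE were looked for because CREB acts on genes that carry this element near their start. RefSeq promoter windows (GRCh38.p14) were used, which hold 250 bases before and 50 after a transcript start. The full site was TGACGTCA, which reads the same on both strands, and the short site was TGACG or, on the other strand, CGTCA; each full site contains both short sites, overlapping. Among 35116 windows, 1.85% held a full site and 24.6% a short site; by gene, the shares were 2.25% and 28.4% of 27305 genes. A symbol match was found for 9 of the 10 genes, with 29 windows between them. A full site was present for 2 of these 9 (CGA and CREM) and a short site for 6 (also LINC00473, NR4A3, SIK1 and PDE4D). These counts are not to be set directly against the shares, since some of the genes have several windows and all were chosen as cAMP-responsive. The windows of PDE4B, PDE10A and NR4A1 held neither string of letters, which says only that these letters are not in these windows.

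Stretches with sites follow, 5′ to 3′ on the strand of the gene, with the CRE letters in capitals. Positions are counted from the transcript start, and -1 is the base just before it. Outside the printed stretches, the CGA window also holds a short site that begins at -210, and the NR4A3 window one that begins at -25. CGA is shown for its tandem pair of full sites, which begin 18 bases apart at -142 and -124 (chr6:87095221-87095250, minus strand). CREM is shown for the full site at -50 of a transcript start inside the gene (chr10:35195841-35195870, plus strand). NR4A3 (chr9:99821665-99821854, plus strand), SIK1 (chr21:43427190-43427351, minus strand) and LINC00473 (chr6:165988040-165988259, minus strand) are shown for short sites without a full one.
CGA: atTGACGTCAtggtaaaaatTGACGTCAtg
CREM: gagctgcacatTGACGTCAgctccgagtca
NR4A3: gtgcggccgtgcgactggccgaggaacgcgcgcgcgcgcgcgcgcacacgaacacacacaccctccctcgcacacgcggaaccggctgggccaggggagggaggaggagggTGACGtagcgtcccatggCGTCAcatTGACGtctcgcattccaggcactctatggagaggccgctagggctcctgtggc
SIK1: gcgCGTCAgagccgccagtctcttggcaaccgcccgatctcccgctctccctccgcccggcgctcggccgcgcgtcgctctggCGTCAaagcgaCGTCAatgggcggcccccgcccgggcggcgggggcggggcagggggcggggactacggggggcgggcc
LINC00473: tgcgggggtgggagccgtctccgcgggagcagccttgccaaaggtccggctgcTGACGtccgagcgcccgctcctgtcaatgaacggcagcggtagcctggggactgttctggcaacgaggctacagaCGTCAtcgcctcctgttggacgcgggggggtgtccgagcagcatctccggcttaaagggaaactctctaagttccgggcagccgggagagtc

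**Figure D1:**
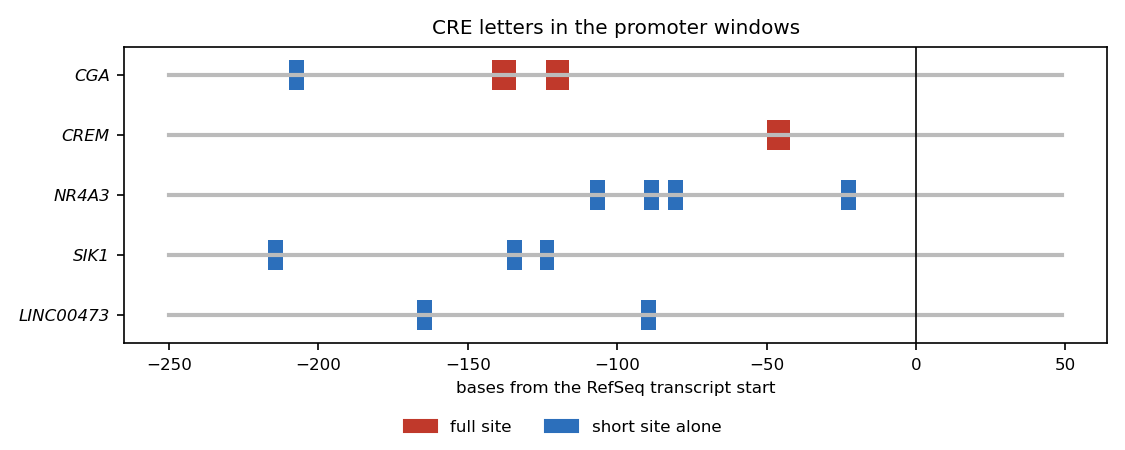
CRE letters in 1 promoter window of each of 5 genes; the horizontal axis is the distance in bases from the RefSeq transcript start, grey lines are the windows, red bars full sites and blue bars short sites alone. CGA holds 2 full sites 18 bases apart and a short site alone, CREM holds 1 full site, and the NR4A3, SIK1 and LINC00473 windows hold short sites.

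Counted by line, 9 of the 10 genes for MDA-MB-468 and 9 of the 10 for ZR75-1 had every PKC412 sample above every DMSO sample. The exceptions were PDE10A in MDA-MB-468, which was listed at 0 in all 5 samples, and PDE4B in ZR75-1, where the treatments overlapped. Of the 9 genes that passed the filter on low values (0.1 FPKM, which the mean of 1 group or more had to exceed), all 9 for MDA-MB-468 and 8 for ZR75-1 had this separation, against 39.6% and 14.8% of the 16071 genes tested. Past an adjusted p of 0.05 in limma were 3 of the 9 for MDA-MB-468 and 5 for ZR75-1, all higher in PKC412. Over all genes tested, MDA-MB-468 had 0.691% called higher and ZR75-1 had 0.747%. PDE10A did not pass the filter, and NR4A3 passed it only through its PKC412 samples. LINC00473 and PDE4D passed it only through ZR75-1. In MDA-MB-468, where they count among the 9 with separation, both were close to 0. There LINC00473 was at 0 in DMSO and at 0.0337 FPKM or less in PKC412. PDE4D was at 0.0112 FPKM or less in DMSO and at 0.0365 FPKM or less in PKC412. The 2 lines share no samples in the values compared. Their limma calls are not independent, because both rest on 1 estimate of the spread per gene over all 10 samples.

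CGA encodes the alpha subunit common to the glycoprotein hormones and was the most abundant of the 10 genes in every group. In ZR75-1, CGA was at 16.0 and 27.6 FPKM in DMSO and at 446, 369 and 496 FPKM in PKC412. The DMSO mean of 21.8 ± 8.21 (SD, n = 2) compares with a PKC412 mean of 437 ± 63.8 (SD, n = 3), a ratio of 20.1, and single pairs of samples gave ratios from 13.4 to 31.1. In MDA-MB-468, CGA was at 34.1 and 38.7 FPKM in DMSO and at 50.0, 49.8 and 50.1 FPKM in PKC412, a ratio of means of 1.37. The groups therefore stood in the order ZR75-1 DMSO, MDA-MB-468 DMSO, MDA-MB-468 PKC412 and ZR75-1 PKC412, with no overlap between neighbours. On the log2(FPKM + 1) scale, on which 1 is added to each value and changes of low genes come out smaller, the difference was 4.31 ± 0.21 (SE) in ZR75-1 and 0.45 ± 0.21 in MDA-MB-468.

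The beta subunits that pair with the CGA product were at low levels or 0. Only 2 of 9 beta subunit genes passed the filter, and none of the 2 (0) was past an adjusted p of 0.05 in limma in either line, nor at an unadjusted p under 0.05. LHB, the beta subunit gene with the highest mean level, was at 0.108 to 0.580 FPKM in ZR75-1 DMSO and at 0.434 to 0.633 FPKM in ZR75-1 PKC412, which overlap. These genes are near-identical copies in part, so reads may have been split between them.

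LINC00473 is a long noncoding RNA known as a CREB-induced transcript. In ZR75-1 it was at 0.0974 and 0.210 FPKM in DMSO and at 8.82, 4.53 and 11.9 FPKM in PKC412. The means were 0.154 ± 0.0794 (SD, n = 2) and 8.41 ± 3.70 (SD, n = 3), a ratio of 54.8, and single pairs gave 21.6 to 122. In MDA-MB-468 it was listed at 0 in both DMSO samples and at 0.0337, 0.0176 and 5.67e-05 FPKM in PKC412, so its high level was seen in ZR75-1 PKC412 samples and not in the other 3 groups. The log2(FPKM + 1) difference was 2.95 ± 0.30 (SE) in ZR75-1. Its annotated span overlaps those of PDE10A on the same strand and of LINC00602, so its values are uncertain where counting could divide reads between them. LINC00602 was close to 0 in ZR75-1 DMSO and had a mean of 0.185 FPKM in ZR75-1 PKC412.

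**Figure D2:**
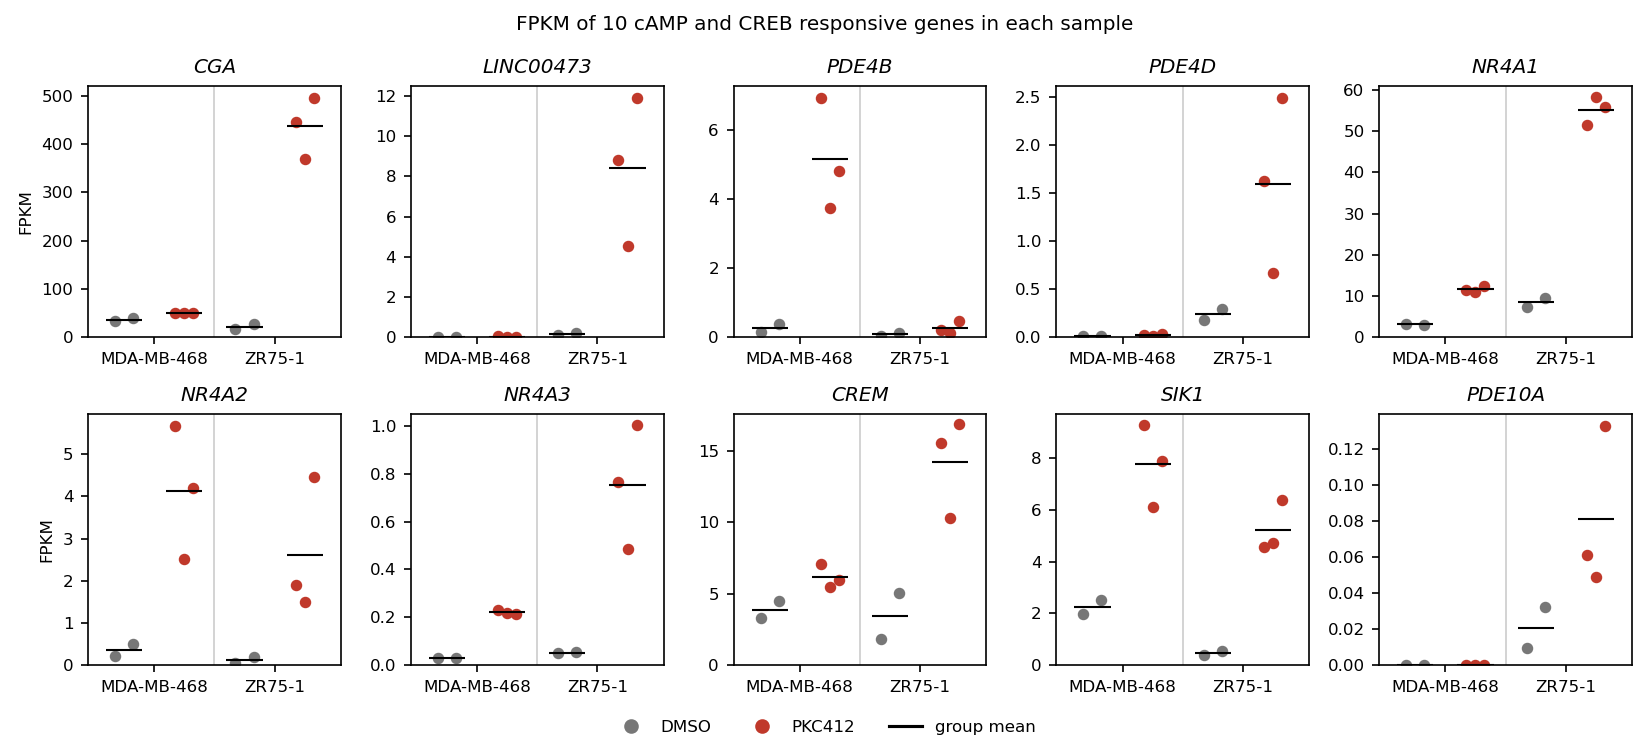
FPKM of each of the 10 genes (vertical axes, linear and separate for each gene) in every sample of both lines; grey points are DMSO samples, red points PKC412 samples and black lines group means. CGA, LINC00473, PDE4D, NR4A1, NR4A3 and CREM stand highest in ZR75-1 PKC412 samples, and PDE4B in MDA-MB-468 PKC412 samples.

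The NR4A genes encode orphan nuclear receptors that act as immediate-early transcription factors. NR4A1 was at 3.31 and 3.03 FPKM in MDA-MB-468 DMSO and at 11.5, 10.9 and 12.4 FPKM in MDA-MB-468 PKC412, a ratio of means of 3.67. In ZR75-1 it was at 7.29 and 9.56 FPKM in DMSO and at 51.6, 58.2 and 56.0 FPKM in PKC412, a ratio of 6.56. The 4 groups did not overlap, and the replicates of NR4A1 lay close together, with pair ratios of 3.30 to 4.10 in MDA-MB-468 and 5.40 to 7.98 in ZR75-1.

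NR4A2 was lower than NR4A1 in every sample. It was at 0.221 and 0.494 FPKM in MDA-MB-468 DMSO and at 5.68, 2.52 and 4.19 FPKM in PKC412, a ratio of 11.6. In ZR75-1 it was at 0.0498 and 0.180 FPKM in DMSO and at 1.90, 1.49 and 4.47 FPKM in PKC412, a ratio of 22.8. The PKC412 samples of the 2 lines overlapped for NR4A2, and its log2(FPKM + 1) difference was 1.88 ± 0.37 (SE) for MDA-MB-468 and 1.61 ± 0.37 for ZR75-1. NR4A3 was the lowest of the 3 receptors in the PKC412 samples, at 0.230, 0.216 and 0.215 FPKM in MDA-MB-468 and 0.766, 0.487 and 1.00 FPKM in ZR75-1. In DMSO it was at 0.0287 and 0.0279 FPKM in MDA-MB-468 and at 0.0487 and 0.0525 FPKM in ZR75-1, and its ratios of means were 7.78 and 14.9. All 3 receptor genes were thus higher in PKC412 in both lines without overlap.

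CREM and SIK1 are feedback regulators of CREB. CREM, which encodes activators and repressors that bind the CRE, was at 3.26 and 4.46 FPKM in MDA-MB-468 DMSO and at 7.06, 5.45 and 5.99 FPKM in PKC412, a ratio of 1.60. In ZR75-1, CREM was at 1.80 and 5.04 FPKM in DMSO and at 15.5, 10.3 and 16.9 FPKM in PKC412, a ratio of 4.17. The DMSO samples of ZR75-1 differed from each other by more than those of MDA-MB-468, and single pairs gave ratios from 2.04 to 9.37. FPKM per gene symbol do not separate activator from repressor transcripts, and the annotated span of CREM overlaps that of CUL2.

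SIK1, a kinase that phosphorylates the CRTC coactivators, was at 1.97 and 2.52 FPKM in MDA-MB-468 DMSO and at 9.28, 6.12 and 7.88 FPKM in PKC412, a ratio of 3.45. In ZR75-1 it was at 0.399 and 0.547 FPKM in DMSO and at 4.58, 4.72 and 6.39 FPKM in PKC412, a ratio of 11.1. The PKC412 samples of the lines overlapped, whereas the DMSO samples did not. GENCODE lists a near-identical copy, SIK1B, so the level of SIK1 is uncertain where reads could be split.

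PDE4B, PDE4D and PDE10A encode phosphodiesterases, of which the PDE4 enzymes are specific for cAMP and PDE10A hydrolyses cAMP and cGMP. PDE4B was at 0.144 and 0.376 FPKM in MDA-MB-468 DMSO and at 6.92, 3.74 and 4.81 FPKM in PKC412, a ratio of 19.9 with pair ratios from 9.97 to 48.2. In ZR75-1 it was at 0.0456 and 0.125 FPKM in DMSO and at 0.210, 0.110 and 0.474 FPKM in PKC412, and these overlap. The log2(FPKM + 1) difference of PDE4B was 2.26 ± 0.22 (SE) for MDA-MB-468 and 0.21 ± 0.22 for ZR75-1.

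PDE4D had the higher values in the other line. It was at 0.184 and 0.290 FPKM in ZR75-1 DMSO and at 1.63, 0.667 and 2.49 FPKM in ZR75-1 PKC412, a ratio of 6.74. In MDA-MB-468 it was at 0.0112 and 0.00821 FPKM in DMSO and at 0.0207, 0.0142 and 0.0365 FPKM in PKC412, all below every ZR75-1 sample. PDE10A was at 0.00947 and 0.0320 FPKM in ZR75-1 DMSO and at 0.0611, 0.0488 and 0.133 FPKM in ZR75-1 PKC412, so its values remained close to 0 where its separation was seen. The spans of PDE4D and PART1 overlap, as do those of PDE10A and LINC00473, and how their reads were divided is not known.

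**Figure D3:**
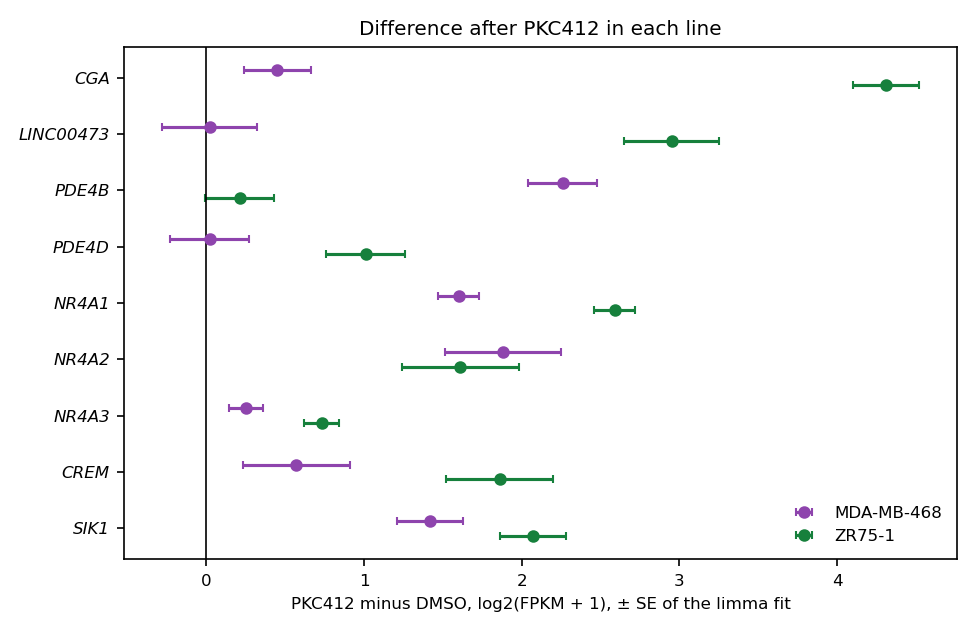
PKC412 minus DMSO on the log2(FPKM + 1) scale (horizontal axis) for the 9 genes that passed the filter; purple points are MDA-MB-468, green points ZR75-1, and bars the SE of the limma fit. CGA lies at 0.45 for MDA-MB-468 and 4.31 for ZR75-1, and PDE4B lies at 2.26 for MDA-MB-468 and 0.21 for ZR75-1.

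The responses of the 2 lines were set side by side. The response in MDA-MB-468 minus that in ZR75-1 was -3.86 ± 0.30 (SE) for CGA and -2.92 ± 0.42 for LINC00473 on the log2(FPKM + 1) scale, both larger in ZR75-1. For PDE4B it was 2.05 ± 0.31, larger in MDA-MB-468. Past an adjusted p of 0.05 for this difference were 2 of the 9 genes, CGA and LINC00473, against 0.268% of all genes tested. For NR4A1 the difference between the responses was -0.99 ± 0.19, for SIK1 -0.65 ± 0.30, for CREM -1.30 ± 0.48 and for NR4A2 0.26 ± 0.52. Over the 9 genes, PKC412 minus DMSO had a median of 0.57 for MDA-MB-468 and 1.86 for ZR75-1, while all genes tested had medians of 0.11 and 0.07. A pseudocount of 0.1 gave larger differences for genes at low FPKM. PKC412 minus DMSO in ZR75-1 was then 5.0 for LINC00473, 3.57 for NR4A2, 2.45 for NR4A3 and 2.18 for PDE4D, and in MDA-MB-468 it was 3.91 for PDE4B and 3.20 for NR4A2. The difference between the responses was then -4.78 ± 0.57 (SE) for LINC00473 and -3.91 ± 0.32 for CGA, the reverse of their order with a pseudocount of 1, and for NR4A2 it turned from 0.26 to -0.37 ± 0.79.

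The order of the samples within a group was compared over the 10 genes. In ZR75-1, DMSO replicate 2 had the higher FPKM for 10 of 10 genes, and PKC412 replicate 3 had the highest for 9 of 10. In MDA-MB-468, DMSO replicate 2 was the higher one for 5 of the 8 genes above 0, and PKC412 replicate 1 was the highest for 6 of 9. For each sample, log2 FPKM minus the gene's mean over all samples of that line was fitted on transcript GC content. The slopes are therefore relative to the other samples of the line and are not the GC dependence of 1 sample by itself. Per 10 percentage points they came to 0.314 and -0.192 with DMSO in ZR75-1, where PKC412 gave -0.107, 0.342 and -0.356. In MDA-MB-468 the slopes were 0.373 and 0.0574 in DMSO and -0.287, -0.0242 and -0.119 in PKC412, so both DMSO samples lay above all PKC412 samples. GC content was 38.1% to 43.2% in CGA, PDE4B, PDE4D, CREM and PDE10A and 57.7% to 58.6% in SIK1 and NR4A1, with a median of 49.9% over the genes tested.

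After adjustment of each sample for GC content and transcript length, ZR75-1 DMSO replicate 2 was the higher one for 8 of 10 genes and PKC412 replicate 3 the highest for 4 of 10. In MDA-MB-468 the adjusted difference was 0.11 ± 0.15 (SE) for CREM, compared with 0.57 ± 0.34 as deposited, and 0.27 ± 0.11 for CGA. It was 1.99 ± 0.11 for PDE4B, 1.57 ± 0.09 for NR4A1 and 1.33 ± 0.13 for SIK1. In ZR75-1 it was 4.37 ± 0.11 for CGA, 2.42 ± 0.09 for NR4A1 and 1.76 ± 0.15 for CREM. LINC00473 had no GC value and was given the median one. With the adjustment, 8 of the 10 genes for MDA-MB-468 and all 10 for ZR75-1 had every PKC412 sample above every DMSO sample, and so had 28.3% and 15.8% of all genes tested, respectively. Nothing is read from these counts. In MDA-MB-468, where slope and treatment go together, an effect of PKC412 along GC content and a technical one cannot be told apart.

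**Figure D4:**
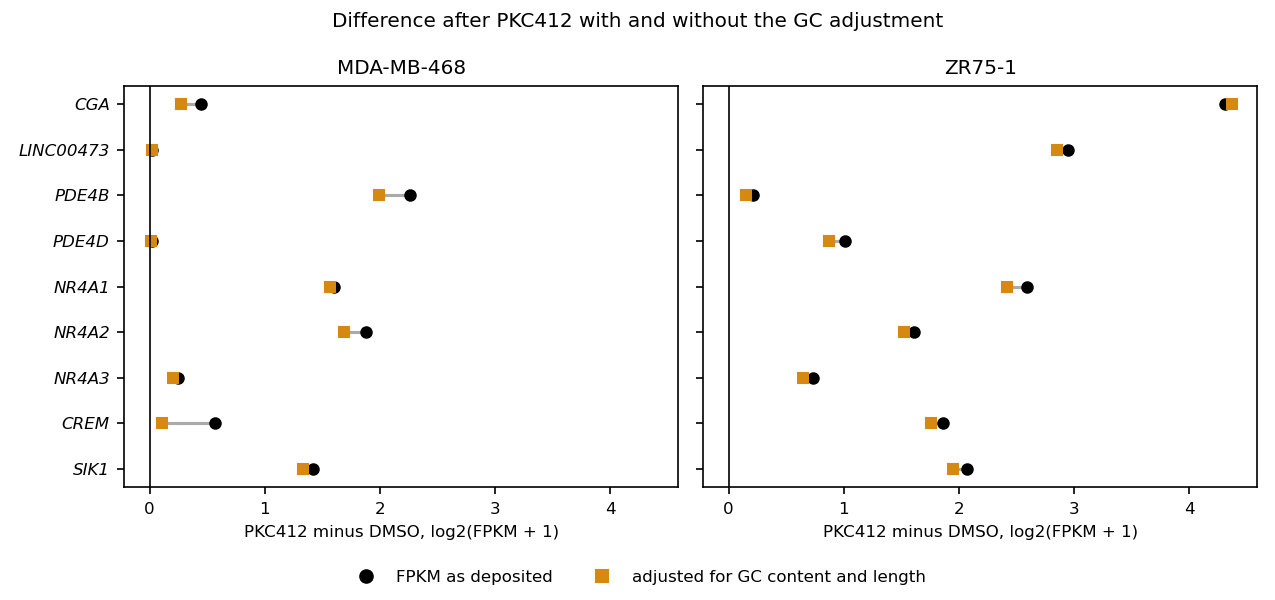
PKC412 minus DMSO on the log2(FPKM + 1) scale (horizontal axis, the same in both panels) for the 9 genes that passed the filter, as deposited (black circles) and after adjustment for GC content and transcript length (orange squares). CREM in MDA-MB-468 moves from 0.57 to 0.11, and CGA in ZR75-1 from 4.31 to 4.37.

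The levels in DMSO were also compared between the lines. The same DMSO samples entered the choice of the genes, so these values are again a description. CGA was higher in MDA-MB-468 by 0.76 ± 0.24 (SE) on the log2(FPKM + 1) scale, and SIK1 was higher there by 1.14 ± 0.23. For NR4A1, MDA-MB-468 minus ZR75-1 was -1.17 ± 0.15. These 3 genes were those past an adjusted p of 0.05 in limma, 3 of 9 against 42.4% of all genes tested. The DMSO samples of the lines did not overlap for them, nor for LINC00473, PDE4B, PDE4D, NR4A2 and NR4A3, and overlapped for CREM. The share of all genes with this separation was not computed, so nothing is read from it. For CGA the difference fell to 0.39 ± 0.18 without ZR75-1 DMSO replicate 1, the lower of the pair. The other 6 genes had differences between -0.29 and 0.28.

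Other genes of the pathway were described from 8 lists with 101 genes, none of which is among the 10. The lists were chosen with earlier results of these data known, so their calls and p-values are no independent support. Of these, 70 passed the filter. In MDA-MB-468, 1 of the 70 was past the threshold (1.43%, against 1.26% of all genes tested), and in ZR75-1 3 of the 70 were (4.29%, against 0.946%), all higher in PKC412. Past an unadjusted p of 0.05 in limma were 20 for MDA-MB-468 (28.6%, against 16.4% of all genes tested) and 16 for ZR75-1 (22.9%, against 11.2%). Of the 70, 5 passed the filter only through PKC412 samples (SCG2, GEM, PDE2A, PDE7B and AKAP5), and none of the 4 genes called is among these 5. The unadjusted counts and the medians were taken over all 70 with these 5 included, so they are a description. The 70 genes had a median difference of 0.22 for MDA-MB-468 and 0.21 for ZR75-1, compared with 0.11 and 0.07 over all genes tested.

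Among 28 further CRE target genes, 19 passed the filter. PER1, a circadian clock repressor, was at 2.13 and 2.23 FPKM in MDA-MB-468 DMSO and at 5.59, 4.70 and 5.94 FPKM in PKC412. It rose in MDA-MB-468 by 1.01 ± 0.16 (SE) on the log2(FPKM + 1) scale (limma, adjusted p = 0.0267). In ZR75-1 PER1 had a difference of 0.58 ± 0.16 and did not pass. DUSP1, a phosphatase that inactivates MAP kinases, was at 1.45 and 3.78 FPKM in ZR75-1 DMSO and at 14.2, 23.3 and 15.6 FPKM in PKC412. It rose in ZR75-1 by 2.42 ± 0.34 (adjusted p = 0.0199), and its difference in MDA-MB-468 was 0.43 ± 0.34. ODC1, the first enzyme of polyamine synthesis, was at 6.03 and 9.32 FPKM in ZR75-1 DMSO and at 18.6, 17.8 and 18.1 FPKM in PKC412, and rose by 1.17 ± 0.16 (adjusted p = 0.0199). JUNB, the most abundant gene of this list, was at 25.5 to 26.9 FPKM in ZR75-1 DMSO and 25.2 to 47.6 FPKM in PKC412, which overlap.

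These 3 calls did not hold in every fit with 1 sample left out. They were also lost without samples of the other line, which enter the shared estimate of the spread, and the reason was not tested. With 1 sample left out at a time, the call for PER1 held in 5 of 10 fits (adjusted p from 0.0305 to 0.225), that for DUSP1 in 4 of 10 (0.0182 to 0.122) and that for ODC1 in 3 of 10 (0.00493 to 0.0774), in limma. The call for PDE4A, described next, held in 10 of 10 (0.00678 to 0.0385). All 3 lost calls included the fits without MDA-MB-468 DMSO replicate 1 or 2, without MDA-MB-468 PKC412 replicate 3 and without ZR75-1 PKC412 replicate 1; PER1 and ODC1 were also lost without MDA-MB-468 PKC412 replicate 1, and DUSP1 and ODC1 without ZR75-1 DMSO replicate 1 or ZR75-1 PKC412 replicate 3. With each line fitted alone, limma gave adjusted p of 0.0731 for PER1, 0.353 for DUSP1, 0.475 for ODC1 and 0.353 for PDE4A.

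Among 13 other cAMP phosphodiesterases, 7 passed the filter and 1 was past the threshold. PDE4A, of the same cAMP-specific subfamily as PDE4B and PDE4D, was at 0.782 and 0.862 FPKM in ZR75-1 DMSO and at 3.72, 4.14 and 4.94 FPKM in PKC412. It rose in ZR75-1 by 1.52 ± 0.15 (SE) on the log2(FPKM + 1) scale (limma, adjusted p = 0.00394). In MDA-MB-468 PDE4A was at 1.97 and 2.27 FPKM in DMSO and at 3.09, 2.90 and 3.19 FPKM in PKC412, a difference of 0.38 ± 0.15 that did not pass. Of the PDE4 genes, PDE4B thus had its highest values in MDA-MB-468 PKC412 samples, and PDE4D and PDE4A had theirs in ZR75-1 PKC412 samples. PDE8A, the most abundant gene of this list by mean FPKM, overlapped between treatments in ZR75-1. In MDA-MB-468 it was at 1.59 to 2.45 FPKM in DMSO and 3.42 to 6.36 FPKM in PKC412, without overlap, and it passed the threshold in neither line.

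No gene (0) of the other lists passed in limma in either line. At an unadjusted p under 0.05 there were, for MDA-MB-468 and then ZR75-1, 1 and 2 of 6 adenylyl cyclases, 5 and 0 of 9 PKA subunits and inhibitors, 1 and 0 of 9 CREB factors, coactivators and SIK kinases, 3 and 3 of 13 G proteins and Gs-coupled receptors, and 1 and 2 of 5 other cAMP effectors and anchors. Their most abundant genes were ADCY3, the PKA catalytic subunit gene PRKACA, the coactivator gene CRTC2, the Gs alpha subunit gene GNAS and AKAP1. GNAS was at 263 to 336 FPKM in MDA-MB-468 DMSO and 366 to 390 FPKM in PKC412, and at 442 to 785 and 813 to 990 FPKM in ZR75-1. CRTC2 was at 17.2 to 17.4 FPKM in MDA-MB-468 DMSO and 17.1 to 19.6 FPKM in PKC412, which overlap.

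**Figure D5:**
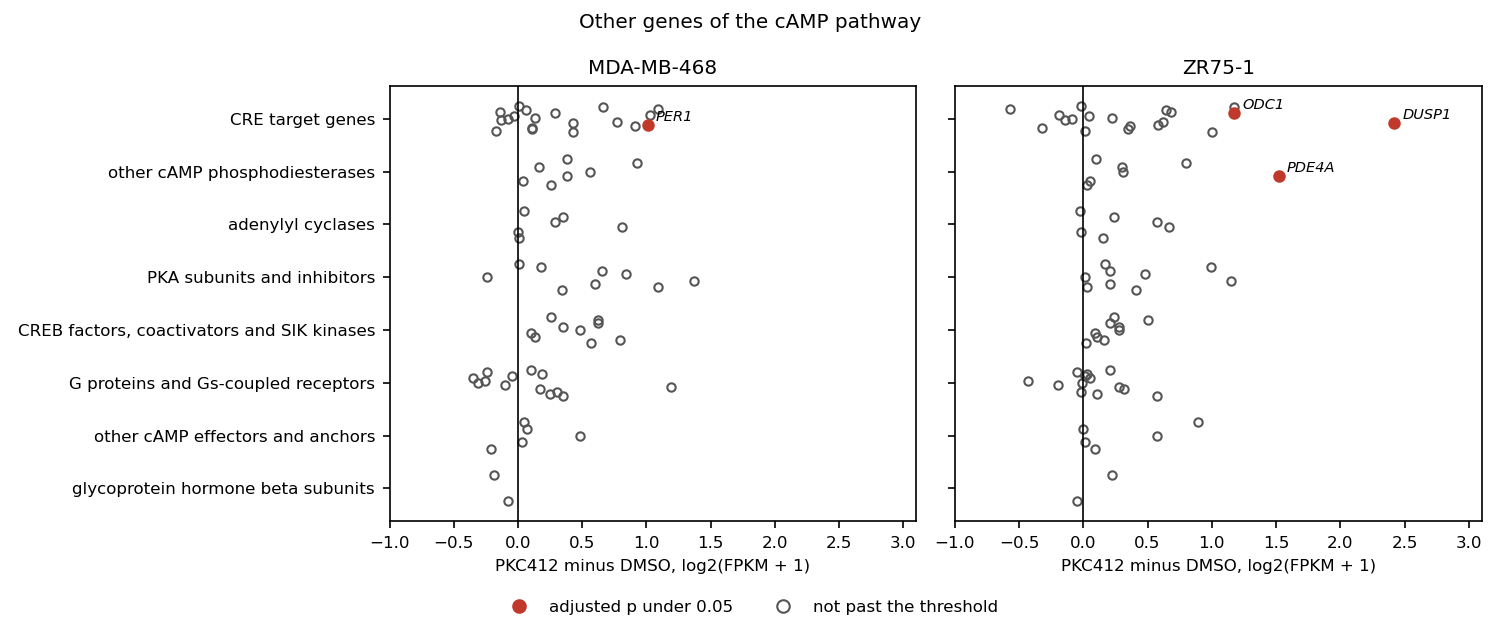
PKC412 minus DMSO on the log2(FPKM + 1) scale (horizontal axes) for the 70 genes of 8 cAMP pathway lists that passed the filter, 1 point per gene and 1 row per list; filled red points have an adjusted p under 0.05. PER1 is the 1 filled point in MDA-MB-468, and DUSP1, ODC1 and PDE4A are the 3 in ZR75-1.

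The genes next to the 10 in the genome were examined in the same samples. Of 18 neighbours that are not among the 10, 11 passed the filter. LINC00602 passed it only through the ZR75-1 PKC412 samples, and its difference in ZR75-1, 0.24 ± 0.04 (SE) on the log2(FPKM + 1) scale, is therefore a description. Of the other 10, 0 were past the threshold in limma in either line, and 0 were at an unadjusted p under 0.05. The neighbours of CGA, namely HTR1E and ZNF292, were below 0.5 FPKM by mean in every group.

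For 3 of the genes, those with the most similar levels over the 10 samples were looked up among 9829 genes by Pearson's r of log2(FPKM + 1). These r are descriptions, since the points share their libraries, lines and treatments. For CGA they were ZBED1 (0.982), CASP9 (0.972) and IRS2 (0.972). ZBED1 had means of 4.11 and 7.70 FPKM in MDA-MB-468 and of 4.12 and 32.9 FPKM in ZR75-1, in DMSO and PKC412 respectively. For LINC00473 they were ACACB (0.987), PCDH8 (0.984) and RHCG (0.971), all highest in ZR75-1 PKC412 samples. For PDE4B they were ULBP1 (0.978), KLHDC7B (0.976) and SNORD26 (0.974), of which SNORD26 was listed at 0 in every sample other than the 3 of MDA-MB-468 PKC412.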

How the data were processed

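The authors made TruSeq libraries, sequenced them on a HiSeq2000 and deposited FPKM per gene symbol, 1 table per sample, from an in-house pipeline. The submitters' processing notes name CASAVA 1.82, TopHat2 and hg19; the counting tool, annotation and filters are not given in the sources used here. FPKM summed to 599228 to 835069 per sample. Low values showed no whole-read steps, so depth is unknown. Of 23426 genes, 3193 were 0 throughout.

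From the deposited FPKM, log2(FPKM + 1) was fitted with limma 3.58.1 (R 4.3.3; eBayes with trend) over all 10 samples with 4 group means (6 residual degrees of freedom), for 16071 genes with mean FPKM above 0.1 in at least 1 group, with Benjamini-Hochberg adjustment over all of them and a threshold of 0.05. The fit was also run on simulated data with independent noise for each gene. That run lacked the slopes on GC content of the real samples, so nothing about these data is read from it. GC content and length came from GENCODE 29 (20654 genes, 88.2%). Polynomials of degree 3 in both were fitted per sample to log2 FPKM minus the gene's mean in the line, and removed. The alternatives were pseudocounts of 0.1 and 0.5, other filters, median-ratio rescaling, each line alone, eBayes without trend, a replicate block, the GC adjustment and each sample left out. Promoter sequences are RefSeq's (GRCh38.p14), matched by symbol; stretches in an annotated UTR were limited to 30 bases. The genes and lists were chosen with earlier results of these data known. A test of the 10 genes between lines in DMSO was planned, and is given as a description because those samples also entered the choice. Named were all 10 genes, pathway genes past the threshold, the most abundant gene of each list, neighbours, and the 3 genes most similar to CGA, LINC00473 and PDE4B (mean FPKM above 1 in at least 1 group, range of at least 1 log2 unit). Python 3.11.15, pandas 2.3.3 and matplotlib 3.10.9 were used for the rest.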

Additional observations from a re-analysis of the deposited data

Results flagged for a closer look

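The values of 2 of the 10 genes are listed here because limma's contrast of the lines put them past its threshold, although both were chosen on these responses and the values are only a description. For CGA, the response in MDA-MB-468 minus that in ZR75-1 was -3.86 ± 0.30 (SE) on the log2(FPKM + 1) scale. For LINC00473 it was -2.92 ± 0.42. No group has the 4 samples that a check for a single outlying sample needs.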

How the results depend on the processing

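Over all genes, 202 were called after PKC412 in MDA-MB-468, 152 in ZR75-1 and 43 for the difference between the lines; 3 and 5 of the 10 genes and 1 and 3 pathway genes were called in MDA-MB-468 and ZR75-1. With a pseudocount of 0.1, 116 genes were called in MDA-MB-468 and 27 for the difference. Without a filter, and likewise without the trend, 68 were called for the difference and 2 pathway genes in MDA-MB-468; median ratios also gave 2 there. With each line fitted alone, limma called 81 genes in MDA-MB-468 and 12 in ZR75-1, 2 of the 10 genes in ZR75-1, and 0 pathway genes in each line (29 and 7 at an unadjusted p under 0.05). The GC adjustment gave 579, 452 and 210 genes, 5 and 8 of the 10 and 4 and 11 pathway genes, and in ZR75-1 279 higher and 173 lower calls, compared with 120 and 32. The causes were not tested.

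Replicates share numbers across treatments, but no label says that a number marks a shared culture. Deviations of same-numbered samples correlated across genes at -0.407 and -0.234 in MDA-MB-468 and 0.0844 and -0.512 in ZR75-1. With the replicate block (2 residual degrees of freedom), limma called 0 genes in MDA-MB-468, in ZR75-1 and for the difference (703, 589 and 445 at an unadjusted p under 0.05), hence 0 of the 10 genes (4 and 8 unadjusted) and 0 pathway genes (6 and 6); with so few degrees of freedom these counts say nothing about stability. The block with the GC adjustment gave 3, 3 and 0 genes (903 unadjusted for the difference), 0 and 1 of the 10 (5 unadjusted in MDA-MB-468) and 0 and 0 pathway genes (14 and 18).

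With 1 sample left out at a time, calls ranged from 65 to 324 in MDA-MB-468, 59 to 183 in ZR75-1, 16 to 64 for the difference and 5001 to 7468 between the lines in DMSO (6822 with all samples). Of the 10 genes, 2 to 4 and 4 to 7 were called, and of the pathway genes 0 to 2 and 1 to 6. MDA-MB-468 counts were lowest without DMSO replicate 1 (65) and replicate 2 (68) and highest without PKC412 replicate 2 (324). The differences of the 10 genes after PKC412 moved by more than the replicate SD in 33 of 356 values, 20 of them with smaller pseudocounts, and 0 reversed. A lone DMSO sample was assumed to vary like the other groups. Unknown depth limits what can be said of values near 0.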
